A study of Mus musculus with 10 samples.

Results

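The genes described are the keratins and other intermediate filament genes of the mouse kidney cortex in aristolochic acid nephropathy (AAN), a toxic injury of the renal tubule. They were chosen by name. All genes with a symbol of the form Krt and a number were taken except *Krt20*, and *Vim*, *Nes*, *Gfap*, *Synm*, *Lmna*, *Lmnb1*, *Lmnb2*, *Nefl*, *Nefm* and *Prph* were added. The rule found 32 genes among the 21792 listed for every mouse, 22 keratins and 10 other filament genes. The mouse annotation holds 49 keratin genes of this name pattern, and those without a row are not analysed here.

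Kidney cortex RNA was sequenced from 4 sham mice and 6 AAN mice, 1 library from each mouse with no pooling. All mice were wild type, and the study's methods describe male C57BL/6 mice aged 8 weeks with littermate controls. The AAN mice received a single intraperitoneal dose of aristolochic acid, 5 mg per kg of body weight in PBS, the sham mice received PBS, and the tissue was taken on day 28. The labels give no batch and do not tie mice of the groups to each other.

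Intermediate filaments are the tough, rope-like part of the cytoskeleton. Keratins form them in epithelia, where 1 type I (acidic) chain must pair with 1 type II (basic) chain, so that a simple epithelium such as the renal tubule is built mainly on the pair keratin 8 and keratin 18. Vimentin fills the same place in mesenchymal cells, endothelium and leukocytes, neurofilaments and peripherin in nerve fibres, and lamins line the inside of the nuclear envelope in nearly all cells. Injured tubule cells are known to raise keratins and to gain vimentin.

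Keratin RNA was dominated by the simple epithelial chains, and most of the filament genes with a measurable level were higher in AAN mice. *Krt18*, *Krt19*, *Vim* and *Lmnb1* had the largest rises among genes measured above 0 in sham mice and above 1 FPKM (fragments per kilobase of transcript and M fragments, a level per length) in AAN mice. *Krt8* rose less than *Krt18*, and *Krt7* by less than the 2-fold limit. Of the 32 genes, 20 were tested, and 13 of these (65%) were called higher in AAN mice and 0 lower. A call needed a Benjamini-Hochberg adjusted p within 0.05 and a change of 2-fold or more (limma over 17129 genes averaging 0.1 FPKM or more). Of all genes tested, 35.8% were called higher and 3.43% lower, 6126 and 588 genes. With no filter on low values, 13 of the 32 (40.6%) were called higher, against 28.3% of all 21792 genes. The 13 were *Krt8*, *Krt12*, *Krt17*, *Krt18*, *Krt19*, *Krt23*, *Krt83*, *Vim*, *Prph*, *Nes*, *Synm*, *Lmna* and *Lmnb1*. Of these, *Krt12*, *Krt17*, *Krt83*, *Prph* and *Synm* averaged under 0.1 FPKM in sham mice and passed the filter only through their AAN values. On the adjusted p alone, 18 were higher and 0 lower, and 0 were lower at an unadjusted p under 0.05.

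These counts stand beside a broad rise of the FPKM as deposited, whose size depended on the scaling between mice. Summed FPKM ran from 439662 to 715204 in sham mice and from 388126 to 561364 in AAN mice. What part of the rise came from the tissue was not tested. Over all genes tested, the median change was 0.75 on the log2 scale, and 1.06 with each mouse set to the same FPKM total. With no filter on low values it was 0.73 over the 32 filament genes and 0.58 over all 21792 genes. Scaling the mice by the median of ratios moved the median of all genes to 0.05 and gave 3201 genes higher and 1811 lower, and quantile normalization moved it to -0.10 with 2537 higher and 2025 lower. Under each of these scalings 9 filament genes were called higher and 1, *Krt10*, lower. With median of ratios this was 47.4% of 19 tested, against 18.9% of all genes. With quantile normalization it was 45% of 20 tested, against 14.8% of all genes. The 9 were the same in both, namely *Krt8*, *Krt12*, *Krt17*, *Krt18*, *Krt19*, *Krt83*, *Vim*, *Prph* and *Lmnb1*. Part of these shares rests on *Krt12*, *Krt17*, *Krt83* and *Prph*, which the filter kept only for their AAN values. No unfiltered share was made under these scalings.

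Library depth, recovered from the steps between low values, was 15.8 to 17.5 M fragments in sham mice and 13.4 to 16.5 M in AAN mice. The defining markers of the cortex were present, with *Slc34a1*, the phosphate carrier of the proximal tubule, at 1231 to 2754 FPKM in sham and 390.2 to 1487 in AAN mice. Proximal tubule markers fell in 6 of 8 genes, whereas injured tubule markers rose in 6 of 6, fibroblast markers in 7 of 7, leukocyte markers in 7 of 7 and markers of dividing cells in 5 of 5. Among the proximal tubule markers, *Slc13a1* went the other way, with 27.2 to 41.2 FPKM across sham and 33.0 to 77.9 FPKM across AAN mice. It was higher at an unadjusted p under 0.05 (limma) and was not called. In bulk tissue, fewer cells of a type and less RNA per cell cannot be told apart. The AAN mouse named 2 was the lowest AAN mouse in 6 of the 9 filament genes called higher that averaged 1 FPKM or more in a group, and it had the lowest sum of injured tubule markers (1408 FPKM against 2010 to 3591 in the other AAN mice) and the highest of proximal tubule markers (2230 against 724.1 to 1125). Without that mouse, the same 13 filament genes were called higher.

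The simple epithelial keratins were *Krt8* and *Krt7* of type II, and *Krt18* and *Krt19* of type I. *Krt8* (chr15:101996698-102004482, minus strand) and *Krt18* (chr15:102028180-102032027, plus strand) are neighbours in GRCm38, 23697 bases apart and pointing away from each other. *Krt18* lies in the type II cluster, and the other 11 type I keratins of this set are on chromosome 11. The reference stretches before the start of these genes, from RefSeq on build GRCm38.p6, are shown because both chains rose and are made as partners. Each is the part of the 250 bases upstream of the RefSeq start that no annotated exon covers.
Krt8 (chr15:102004483-102004592, minus strand): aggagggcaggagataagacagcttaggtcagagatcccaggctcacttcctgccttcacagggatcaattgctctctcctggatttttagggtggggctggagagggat
Krt18 (chr15:102027966-102028179, plus strand): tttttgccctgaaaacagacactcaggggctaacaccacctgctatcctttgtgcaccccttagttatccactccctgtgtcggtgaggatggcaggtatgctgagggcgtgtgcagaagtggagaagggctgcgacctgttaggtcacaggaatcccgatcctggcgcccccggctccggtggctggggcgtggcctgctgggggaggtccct
They were searched on both strands for the AP-1 motif TGANTCA, the STAT motif TTCNNNGAA, the TATA box TATAAA, the CCAAT box and the GC box GGGCGG, and a match would have been set in capitals. Neither stretch held a match. The share of G and C was 53.6% in the *Krt8* stretch and 60.7% in the *Krt18* stretch.

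*Krt8* was the most abundant keratin in every mouse. Its level was 42.2, 43.3, 56.9 and 57.7 FPKM in the 4 sham mice, and the 6 AAN mice ranged from 92.0 to 230.1 FPKM with a median of 219.6. No AAN mouse reached down to the sham range. *Krt8* rose by 1.87 ± 0.26 on the log2 scale (SE, n = 4 and 6, adjusted p = 8.93e-05 by limma). With median of ratios scaling the change was 1.10, just past the fold limit (adjusted p = 0.0044, limma).

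*Krt18*, the type I partner of *Krt8*, was at 8.36, 10.4, 16.5 and 11.2 FPKM in sham mice, and at 39.2 to 139.0 FPKM with a median of 120.2 in AAN mice. The AAN mice were far from the sham range. *Krt18* rose by 3.14 ± 0.34 on the log2 scale (adjusted p = 9.71e-06), and 2.37 after median of ratios scaling (adjusted p = 2.01e-04, limma). Within a mouse, *Krt8* exceeded *Krt18* by 2.13 ± 0.27 on the log2 scale in sham mice (SD) and by 0.86 ± 0.32 in AAN mice. This difference fell by 1.27 ± 0.19 (SE), put 6 of 6 AAN mice below the sham range, and had an exact two-sided permutation p of 0.00476, the smallest that 210 arrangements of the mice can give (adjusted p = 0.00635 over 8 pairs of genes). The pairs were chosen with earlier results of these data known, and the adjustment does not cover that choice.

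*Krt7* (chr15:101411043-101430313, plus strand), a type II keratin of collecting ducts and other ductal epithelia, was at 13.9, 15.6, 18.3 and 20.1 FPKM in sham mice. In AAN mice it ranged from 22.1 to 34.3 FPKM with a median of 28.0. The groups did not overlap, but they lay close together. The log2 fold change of 0.70 ± 0.17 passed the p limit (adjusted p = 0.00408, limma) and not the fold limit. It was 0.04 below the median of all genes, turned to -0.06 with median of ratios scaling (adjusted p = 0.81) and rose to 1.07 when each mouse was set to the same FPKM total (adjusted p = 0.00193).

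*Krt7* and *Krt18* changed places. *Krt7* was above *Krt18* in 4 of 4 sham mice and below it in 6 of 6 AAN mice. Relative to *Krt8*, *Krt7* was at -1.55 ± 0.07 on the log2 scale in sham mice and at -2.72 ± 0.45 in AAN mice, a difference of -1.16 ± 0.19 (exact two-sided permutation p = 0.00952, adjusted p = 0.0109). All 6 AAN mice were below all sham mice. Collecting duct markers, measured beside these genes, were called higher in 0 of 8 by limma (1 at an unadjusted p under 0.05) and lower in 1 of 8, with sums of 276.8 to 389.0 FPKM across sham and 190.2 to 476.0 FPKM across AAN mice.

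*Krt19* (chr11:100140810-100148665, minus strand), the smallest type I keratin and a marker of duct and progenitor-like epithelium, had the largest change of the filament genes tested on the log2(FPKM + 0.1) scale. With a pseudocount of 0.01 it was 5.40, behind *Krt17* (6.03) and *Krt12* (5.54), which were listed at 0 in all sham mice. *Krt19* was at 0.269, 0.243, 0.364 and 0.364 FPKM in sham mice and at 4.56 to 22.7 FPKM with a median of 15.2 in AAN mice. The lowest AAN mouse was far above the highest sham mouse. On the log2 scale *Krt19* rose by 5.05 ± 0.38 (adjusted p = 6.62e-07, limma), and 4.39 after median of ratios scaling. It also rose relative to *Krt18*, by 1.91 ± 0.19, and relative to *Krt7*, by 4.35 ± 0.28, as log2 differences within a mouse (exact two-sided permutation p = 0.00476 and adjusted p = 0.00635 for each, with 6 of 6 AAN mice above all sham mice).

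**Figure D1:**
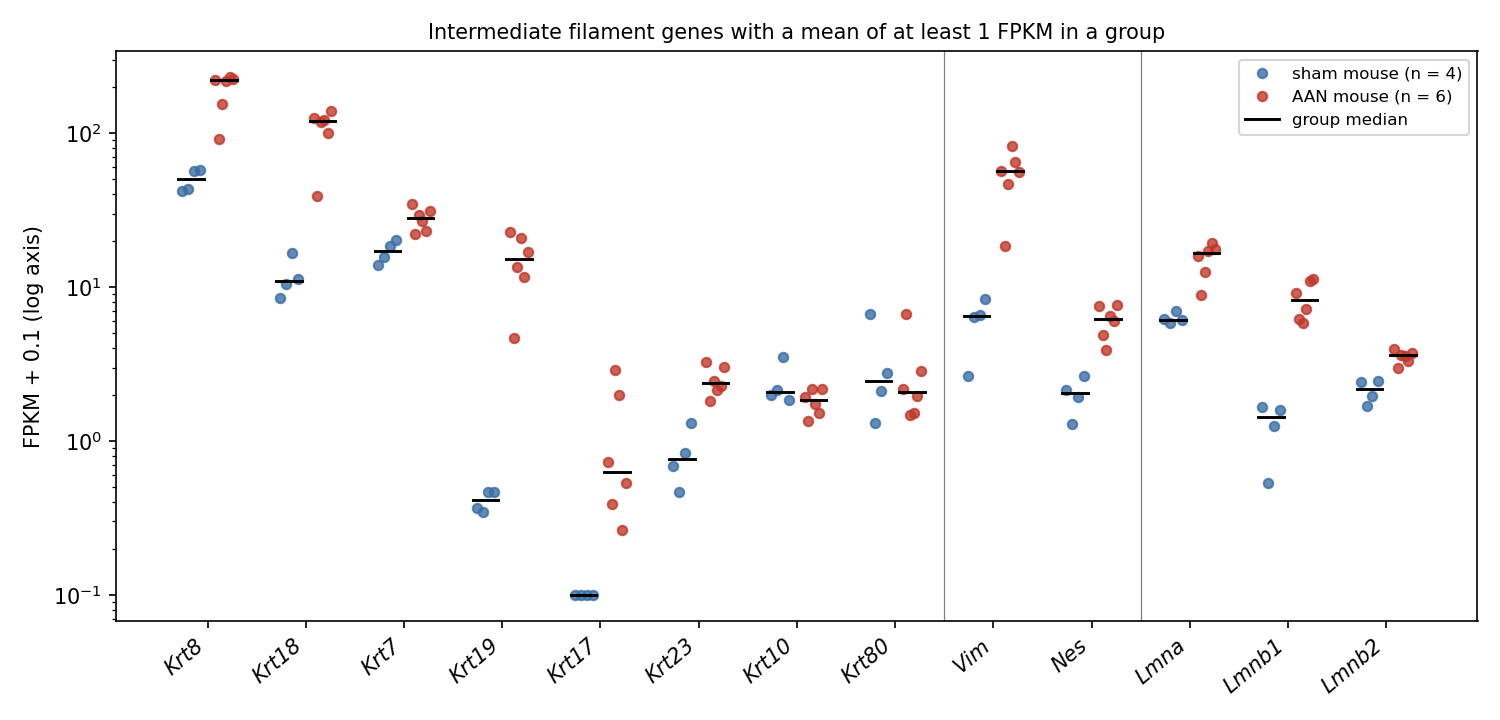
FPKM + 0.1 on a log axis for the 13 filament genes averaging 1 FPKM or more in either group, 1 point per mouse (4 sham in blue, 6 AAN in red) with a line at the group median. The AAN points of Krt8, Krt18, Krt19, Krt17, Krt23, Vim, Nes and the 3 lamins lie above all sham points, those of Krt7 are above them by a small margin, and Krt10 and Krt80 overlap.

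The make-up of keratin RNA followed from these levels. The 4 simple epithelial keratins together were 87.3% to 94.7% of the summed FPKM of the 22 keratins in sham mice, and 93.7% to 97.8% of it in the AAN mice. *Krt20*, a type I keratin outside the rule, is not in these sums. It was at 0 to 0.284 FPKM across sham and 6.76 to 28.8 FPKM across AAN mice. With it in the sum, every share given here would be lower in the AAN mice. *Krt8* was 58.5% ± 1.6 of the sum in sham mice (SD, n = 4) and 54.2% ± 4.6 in AAN mice (n = 6). *Krt18* made up 13.5% ± 2.5 and 30.1% ± 4.6, and *Krt7* made up 19.9% ± 1.4 and 8.47% ± 2.5. The ranges of *Krt18* and of *Krt7* did not overlap between the groups, while those of *Krt8* did. The share of *Krt19* was 0.361% ± 0.022 in sham mice and 4.12% ± 1.1 in AAN mice.

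The summed type II keratins were 4.78 ± 0.87 times the summed type I keratins in sham mice (range 3.66 to 5.50) and 1.83 ± 0.45 times in AAN mice (range 1.33 to 2.55). The ranges did not overlap. *Krt20* is not in this ratio either. With it in the type I sum, the ratio was 4.74 ± 0.87 in sham and 1.59 ± 0.29 in AAN mice.

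**Figure D2:**
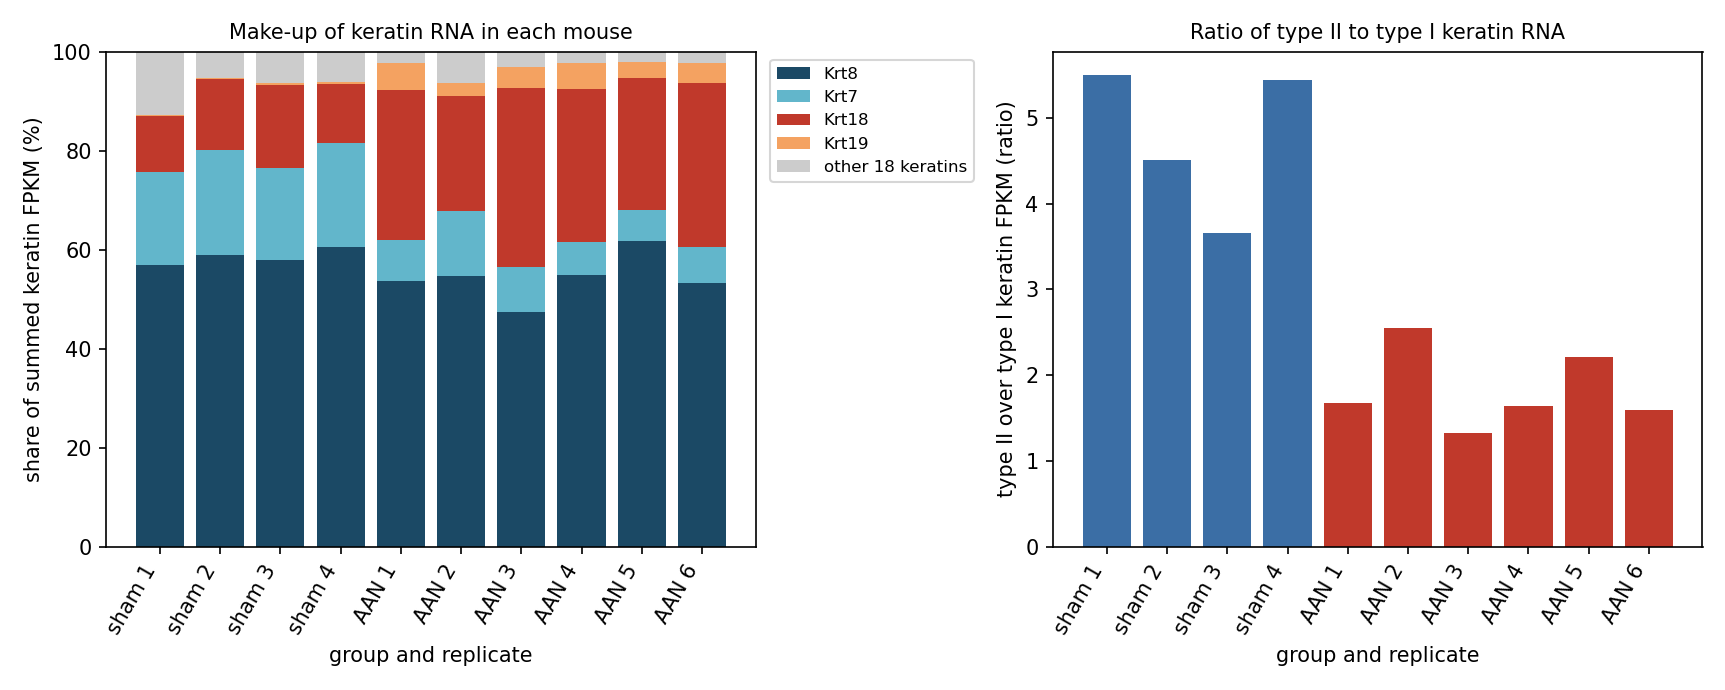
Left, the share of the summed FPKM of 22 keratins (%) taken by Krt8, Krt7, Krt18, Krt19 and the other 18 keratins in each mouse; right, the summed FPKM of 10 type II keratins over that of 12 type I keratins. Krt18 takes 11.3% to 16.7% in the sham and 23.3% to 36.3% in the AAN mice, and the ratio on the right is lower in every AAN mouse than in the sham mice. Krt20 is in neither panel.

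Markers of other epithelia that carry these keratins were low. Uroplakins, the plaque proteins of the urothelium, were called higher in 0 of 4 genes by limma, 3 of which were tested (1 was higher at an unadjusted p under 0.05), with sums of 0.457 to 0.888 FPKM across sham and 0.445 to 1.74 FPKM across AAN mice. Of the 3 mesothelial markers, 2 were tested and 1 rose, with sums of 0 to 0.146 and 0.0713 to 2.39 FPKM, and *Lrrn4* was listed at 0 in all sham mice. Their part in the keratin levels was not tested.

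Among the keratins of basal and stressed epithelium, *Krt17* stood apart and *Krt5* and *Krt15* were near the limit of detection. *Krt17* (chr11:100256217-100261029, minus strand), a type I keratin known to rise in wounded epithelia, was listed at 0 in all 4 sham mice. In AAN mice it ranged from 0.163 to 2.79 FPKM with a median of 0.530, which corresponds to 4 to 67 fragments. It was present in 6 of 6 AAN mice, with most of it in 2 of them. Against a floor of 3 fragments in the sham mouse with the highest floor, the AAN mean was at least 8.42-fold higher, and at least 5.55-fold higher without the AAN mouse named 3, which had the most. The adjusted p was 0.00117 (limma), and the log2 fold change lay between 0.87 and 6.03 with pseudocounts of 1 and 0.01. As all sham values were 0, this p does not measure variation between sham mice either. *Krt5*, the basal type II keratin, was at 0 in 3 of 4 sham mice and at most 0.204 FPKM in any mouse, and *Krt15*, the basal type I keratin, was at most 0.0905 FPKM. Neither reached the filter.

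Of the keratins of differentiated surface epithelia, *Krt12* rose and *Krt10* did not. *Krt12* (chr11:99415666-99422259, minus strand), best known from the corneal epithelium, was listed at 0 in all sham mice and at 0.310 to 0.557 FPKM in AAN mice, 9 to 17 fragments, with a median of 0.475 FPKM. It was above 0 in 6 of 6 AAN mice within a narrow range, and its AAN mean was at least 4.52-fold higher than the sham floor (adjusted p = 1.80e-06, limma). With all sham values at 0, the sham group had no spread, so this p depends on the pseudocount and does not measure variation between sham mice. Neither *Krt12* nor *Krt17* was called with a pseudocount of 1. *Krt20* lies 6143 bases away on the same strand and was at 0 to 0.284 FPKM across sham and 6.76 to 28.8 FPKM across AAN mice. Its part in the fragments counted at *Krt12* was not tested.

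*Krt10* (chr11:99385254-99389364, minus strand), a type I keratin of stratified epithelium, was at 1.88, 2.05, 3.42 and 1.74 FPKM in sham mice and at 1.25 to 2.08 FPKM with a median of 1.73 in AAN mice. The groups overlapped. Its log2 fold change was -0.36 ± 0.22 with an adjusted p of 0.18 (limma). With median of ratios scaling it was -1.09 (adjusted p = 0.00335) and with quantile normalization -1.36 (adjusted p = 8.76e-04), both past the limits. *Krt10* overlaps a listed gene on the other strand, and strand use is not stated. *Krt1*, its usual type II partner in skin, was at most 0.122 FPKM, and *Krt13*, a keratin of internal stratified epithelia, was above 0 in 1 of 10 mice.

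The hair and inner root sheath keratins were nearly silent apart from *Krt83*. *Krt83* (chr15:101485130-101491512, minus strand), a type II hair keratin, was at 0 in 3 sham mice and 0.0605 FPKM in the other one. In AAN mice it was between 0.0317 and 1.26 FPKM with a median of 0.484. The lowest AAN mouse, the one named 2, lay below the highest sham mouse, so the groups overlapped. The log2 fold change was 2.26 ± 0.52 (adjusted p = 0.00278, limma), and it was not called with a pseudocount of 1. Hair keratin genes resemble each other closely, and how shared fragments were assigned is not stated, so *Krt83* is uncertain. Of the skin and hair markers, 4 of 8 had a row, 3 were tested and 1 of them, *Sbsn*, was called higher (0.345 to 0.472 FPKM in sham, 0.990 to 2.48 FPKM in AAN mice). *Krt28*, *Krt36*, *Krt75* and *Krt86* were at most 0.187 FPKM and were not tested.

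The other keratins behaved differently from each other. *Krt23* (chr11:99477974-99493137, minus strand), a type I keratin, was at 0.584, 0.363, 0.737 and 1.20 FPKM in sham mice and at 1.71 to 3.18 FPKM with a median of 2.27 in AAN mice. The groups did not overlap. Its log2 fold change was 1.68 ± 0.28 (adjusted p = 3.08e-04, limma). It fell under the fold limit with median of ratios scaling, at 0.99 (adjusted p = 0.00695), with a pseudocount of 1, at 0.99 (adjusted p = 2.94e-04),, and with quantile normalization, at 0.54 (adjusted p = 0.085).

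*Krt80* (chr15:101347444-101370162, minus strand), a type II keratin of many epithelia, was at 6.60, 1.21, 2.02 and 2.67 FPKM in sham mice and at 1.38 to 6.57 FPKM with a median of 1.97 in AAN mice. In each group 1 mouse was far above the rest, the sham mouse named 1 and the AAN mouse named 2. The log2 fold change was -0.17 ± 0.49 (adjusted p = 0.78, limma). Without the sham mouse it was 0.28 (adjusted p = 0.60). *Krt222*, a keratin-like type I gene, was at 0.0951 to 0.157 FPKM across sham and 0.164 to 0.385 FPKM across AAN mice, with a log2 fold change of 0.61 ± 0.24 (adjusted p = 0.043), under the fold limit. It turned to -0.55 with quantile normalization (adjusted p = 0.073, limma). *Krt42*, *Krt88* and *Krt90* were listed at 0 in all sham mice and stayed at or under the floor of 3 fragments in the AAN mice on average, so no fold is given.

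Across all 22 keratins, 11 were tested and 7 of these were called higher, against 35.8% of all genes tested. Of the 7, *Krt12* and *Krt17* were listed at 0 in all sham mice. The groups did not overlap in 8 of the 11. Over the 32 filament genes, 16 of the 20 tested did not overlap, and among all genes tested 43.6% did not overlap. The 12 genes left out by the filter were at most 0.214 FPKM in any mouse. Of them 6 were at 0 in all sham mice, and 11 had a higher mean in AAN than in sham mice.

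**Figure D3:**
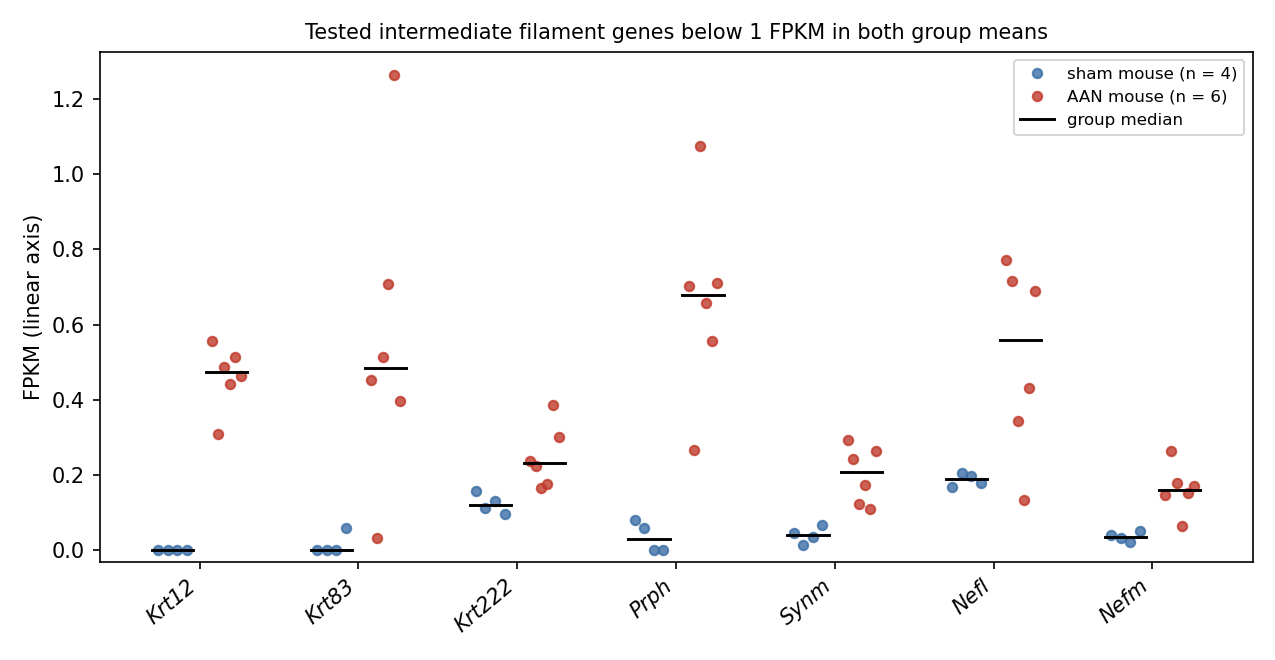
FPKM on a linear axis for the 7 tested filament genes whose mean was under 1 FPKM in both groups, 1 point per mouse with a line at the group median. Krt12 is at 0 in all sham mice and 0.310 to 0.557 FPKM in AAN mice, and 1 AAN mouse each of Krt83 and Nefl lies within or below the sham range.

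Vimentin had the largest change of the non-keratin filament genes on the log2(FPKM + 0.1) scale, whereas with a pseudocount of 0.01 *Prph* was higher (4.48 against 3.19). *Vim* (chr2:13573927-13582826, plus strand), the filament of mesenchymal cells and leukocytes that injured tubules also gain, was at 2.54, 6.25, 6.51 and 8.22 FPKM in sham mice. In AAN mice it was at 18.5 to 81.8 FPKM with a median of 56.4, and all AAN mice were above all sham mice. *Vim* rose by 3.17 ± 0.41 on the log2 scale (adjusted p = 4.45e-05, limma), and 2.41 after median of ratios scaling (adjusted p = 8.56e-04).

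Against *Krt8*, the main keratin, *Vim* gained. *Krt8* exceeded *Vim* by 3.17 ± 0.58 on the log2 scale within sham mice (SD) and by 1.87 ± 0.30 within AAN mice. The difference of -1.30 ± 0.31 had an exact two-sided permutation p of 0.00476 (adjusted p = 0.00635) with 6 of 6 AAN mice below all sham mice. *Krt18* was above *Vim* in 4 of 4 sham and 6 of 6 AAN mice. The sum of the fibroblast markers was 16.2 to 22.2 FPKM across sham and 116.0 to 262.7 FPKM across AAN mice, and that of the leukocyte markers 19.4 to 32.2 and 252.2 to 929.9 FPKM. Mural cell markers were higher in 2 of 4 genes (sums of 31.8 to 54.8 and 64.3 to 252.6 FPKM), and endothelial markers in 0 of 6 by limma (3 at an unadjusted p under 0.05, with sums of 26.9 to 43.9 and 42.6 to 58.6 FPKM). The part of these cells in the *Vim* level was not tested.

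*Prph*, the peripherin of peripheral nerve fibres, was at 0 to 0.0794 FPKM in sham mice and 0.266 to 1.08 FPKM in AAN mice, with means of 0.0345 and 0.661 FPKM. The groups did not overlap, and the log2 fold change was 2.47 ± 0.33 (adjusted p = 5.29e-05, limma). It was not called with a pseudocount of 1. Of 5 neuronal markers 4 had a row and 1 passed the filter, which was not called, with sums of 0.233 to 0.413 FPKM across sham and 0.252 to 0.412 FPKM across AAN mice, and of 5 glial markers 3 were tested and 1 called higher, with sums of 0.291 to 0.762 and 0.965 to 2.12 FPKM. *Gfap*, the filament of glia, was at most 0.126 FPKM and was not tested.

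Of the type IV filament genes, *Nes* and *Synm* were called higher. *Nes* (chr3:87971078-87980451, plus strand), nestin, known from podocytes, endothelium and progenitor cells, was at 2.03, 1.195, 1.84 and 2.54 FPKM in sham mice and at 3.79 to 7.56 FPKM with a median of 6.14 in AAN mice. The groups did not overlap. *Nes* rose by 1.61 ± 0.25 on the log2 scale (adjusted p = 1.61e-04, limma), and 0.87 after median of ratios scaling, under the fold limit. Relative to *Vim* it fell by 1.56 ± 0.50 on the log2 scale (exact two-sided permutation p = 0.019, adjusted p = 0.019), with 5 of 6 AAN mice below all sham mice. Podocyte markers were called higher in 1 of 5 genes, with sums of 43.1 to 83.7 FPKM across sham and 47.5 to 126.4 FPKM across AAN mice.

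*Synm*, the synemin that joins vimentin and desmin filaments, had means of 0.0404 and 0.201 FPKM and a log2 fold change of 1.07 ± 0.27 (adjusted p = 0.00432). It overlaps a listed gene on the other strand. Its groups did not overlap, but the call was lost without the sham mouse named 2 or the AAN mouse named 1. It was also lost with a pseudocount of 1 (0.20), with median of ratios scaling (0.75, adjusted p = 0.0253) and with quantile normalization (0.048, adjusted p = 0.889). The neurofilament genes *Nefl* and *Nefm* changed by 0.96 ± 0.35 (adjusted p = 0.033) and 0.91 ± 0.26 (adjusted p = 0.00971), both under the fold limit. With quantile normalization they turned to -0.28 and -0.076 (adjusted p = 0.53 and 0.83, limma). *Nefl* of the AAN mouse named 4 was 0.133 FPKM, below all sham mice (0.169 to 0.205 FPKM), and without that mouse both genes were called higher. *Nefl* and *Nefm* overlap on opposite strands, so their fragments cannot be told apart without strand.

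The lamins rose unequally. *Lmna* (chr3:88480147-88509956, minus strand), which encodes lamins A and C of the stiff nuclear lamina, was at 6.09, 5.72, 6.88 and 5.995 FPKM in sham mice and at 8.76 to 19.3 FPKM with a median of 16.5 in AAN mice. The groups did not overlap. *Lmna* rose by 1.24 ± 0.21 on the log2 scale (adjusted p = 3.92e-04, limma). It was 0.48 after median of ratios scaling (adjusted p = 0.077).

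*Lmnb1*, lamin B1, whose RNA is known to be higher in dividing than in senescent cells, was at 1.55, 0.433, 1.16 and 1.495 FPKM in sham mice and at 5.75 to 11.1 FPKM with a median of 8.11 in AAN mice. All AAN mice were well above the sham mice. *Lmnb1* rose by 2.83 ± 0.33 on the log2 scale (adjusted p = 1.77e-05, limma), and 2.46 without the sham mouse named 2, which had the lowest value. With median of ratios scaling the change was 2.11 (adjusted p = 6.99e-05, limma). The sums of the dividing cell markers were 0.913 to 1.46 FPKM across sham and 11.01 to 23.1 FPKM across AAN mice, and the part of dividing cells in *Lmnb1* was not tested.

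*Lmnb2* (chr10:80901203-80918245, minus strand), lamin B2, was at 2.33, 1.59, 1.85 and 2.34 FPKM in sham mice and at 2.86 to 3.87 FPKM with a median of 3.49 in AAN mice. The groups did not overlap, with a log2 fold change of 0.74 ± 0.16 under the fold limit (adjusted p = 0.00211, limma). It moved to -0.19 with quantile normalization (adjusted p = 0.27) and to 1.09 with the same FPKM total (adjusted p = 0.00331).

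The order of the B-type lamins turned within the mice. *Lmnb2* was above *Lmnb1* in 4 of 4 sham mice, and *Lmnb1* was above *Lmnb2* in 6 of 6 AAN mice. *Lmnb1* minus *Lmnb2* was -0.87 ± 0.53 on the log2 scale in sham and 1.22 ± 0.38 in AAN mice, a difference of 2.09 ± 0.31. Relative to *Lmna*, *Lmnb1* rose by 1.59 ± 0.38. Each of these differences had an exact two-sided permutation p of 0.00476 and an adjusted p of 0.00635.

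**Figure D4:**
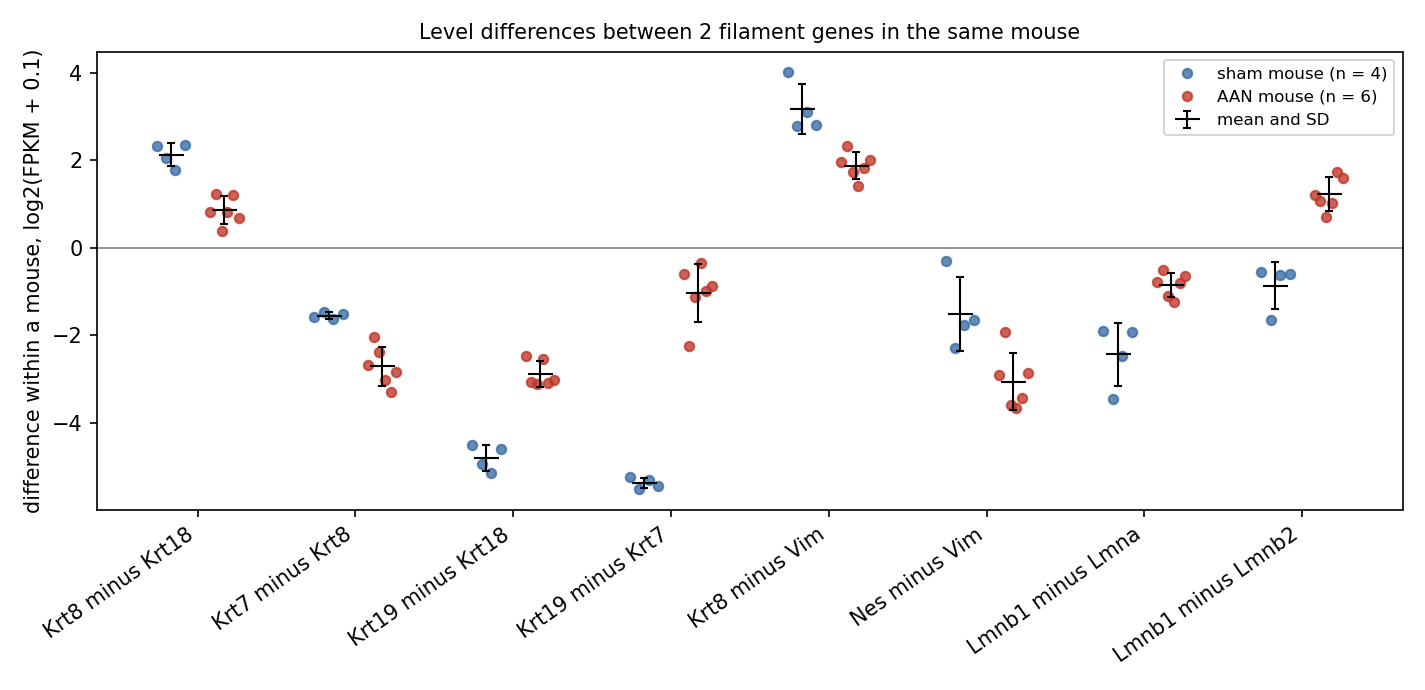
Difference in log2(FPKM + 0.1) between 2 filament genes in the same mouse, 1 point per mouse (4 sham in blue, 6 AAN in red) with the mean and SD of each group. In 7 of the 8 pairs the AAN points do not overlap the sham points, and in Nes minus Vim 5 of 6 AAN mice lie below all sham mice.

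**Figure D5:**
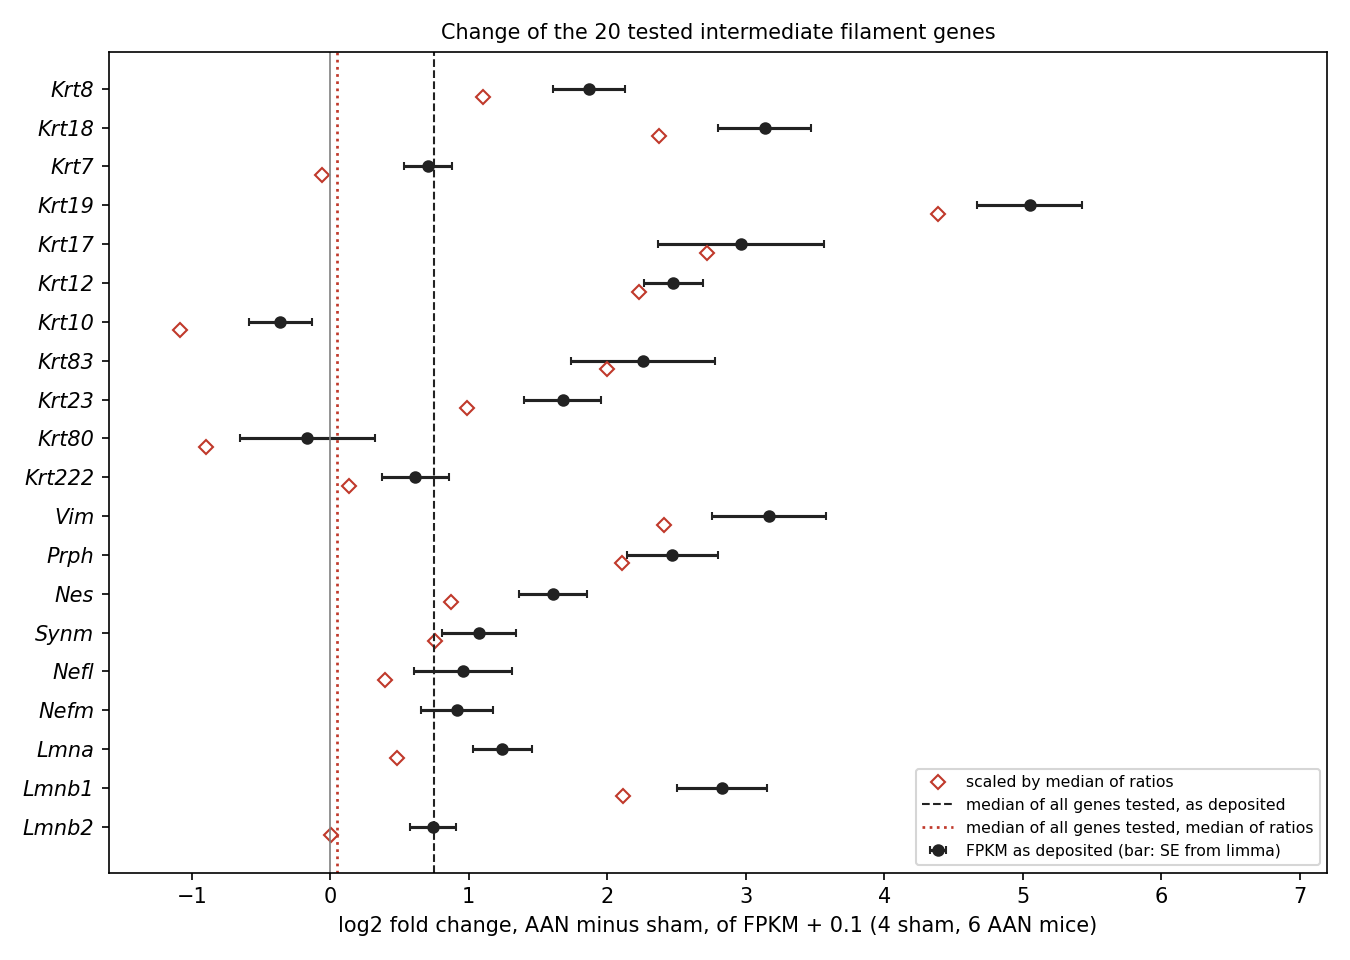
Log2 fold change (AAN minus sham) of the 20 tested filament genes from limma, with SE bars for the FPKM as deposited and diamonds for mice scaled by the median of ratios (Nefm has none, as it did not pass the filter there). Krt19 has the largest value, 5.05, and Krt7, Krt10, Krt80, Krt222 and Lmnb2 lie below the median of all genes tested, 0.75.

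The genes that anchor filaments or work with them were a list of 40, of which 37 had a row and 35 were tested. Of these, 19 (54.3%, against 35.8% of all genes tested) were called higher in AAN mice and 0 lower by limma, and 0 were lower at an unadjusted p under 0.05. With median of ratios scaling 6 were higher (17.1%, against 18.9% of all genes) and 0 lower, and the 6 were *Dsg2*, *Ppl*, *Sfn*, *Des*, *Nefh* and *Bfsp1*. With quantile normalization 5 were higher (14.3%, against 14.8% of all genes) and 1 lower, so under both scalings the share called higher was close to that of all genes. The median log2 fold change of the 35 was 1.03, against 0.75 over all genes tested. When each mouse was left out in turn, 12 of the 19 kept their calls throughout. *Banf1*, *Dsc2*, *Dsp*, *Sun2*, *Syne1*, *Syne2* and *Syne3* lost theirs at least once, of which 5 did without the sham mouse named 2 (*Dsp*, *Sun2*, *Syne1*, *Syne2* and *Syne3*).

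Desmosomes tie keratin filaments to cell junctions, and 4 of their 8 genes tested, of 11 in the list, were called higher, against 35.8% of all genes. *Dsg2*, the main desmosomal cadherin of simple epithelia, was at 0.377 to 1.04 FPKM across sham and 2.60 to 3.92 FPKM across AAN mice, without overlap (log2 fold change 2.04 ± 0.24, adjusted p = 2.05e-05, limma). *Dsp*, the desmoplakin that binds keratins, had means of 1.48 and 3.55 FPKM with overlapping groups, and *Pkp3*, plakophilin 3, had 2.05 and 4.64 FPKM. *Perp*, the most abundant of these genes, was at 30.4 ± 3.2 FPKM across sham and 27.3 ± 5.6 FPKM across AAN mice (log2 fold change -0.17 ± 0.18, adjusted p = 0.41).

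Of the 9 linkers and keratin-binding genes, 8 were tested and 5 called higher, against 35.8% of all genes. *Ppl*, the periplakin that links keratins to the cell edge, was at 0.201 to 0.409 FPKM across sham and 3.52 to 4.65 FPKM across AAN mice, and its log2 fold change of 3.47 ± 0.19 was the largest of the list on this scale (adjusted p = 1.47e-07, limma). With a pseudocount of 0.01 *Nefh* (4.02) was above *Ppl* (3.84), and with a pseudocount of 1 *Sfn* (2.09) was above it (1.99). *Sfn*, the 14-3-3 sigma protein that binds phosphorylated keratins, was at 4.29 to 5.41 and 17.7 to 30.9 FPKM (log2 fold change 2.29 ± 0.17, adjusted p = 7.07e-07). *Plec*, plectin, a large cross-linker of all filament kinds, was at 1.28 to 1.95 and 3.49 to 6.46 FPKM (1.66 ± 0.20, adjusted p = 2.51e-05). None of these groups overlapped. With median of ratios scaling *Ppl* and *Sfn* kept their calls, and *Plec* fell under the fold limit (0.93, adjusted p = 0.00239, limma).

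Partners of the nuclear lamina were called higher in 6 of 14 genes, near the 35.8% of all genes tested. *Tmpo*, the lamina-associated polypeptide 2, was at 5.07 to 6.94 FPKM across sham and 12.6 to 19.2 FPKM across AAN mice (log2 fold change 1.43 ± 0.16, adjusted p = 1.53e-05, limma). *Banf1*, which bridges DNA and the lamina and was the most abundant of the group, had means of 46.9 and 101.1 FPKM with overlapping groups, and *Syne2*, nesprin 2, had 4.52 and 9.78 FPKM. Of the filament genes outside the rule, 5 of 6 were tested and 4 called higher, against 35.8% of all genes. *Des*, the desmin of muscle and mural cells, was at 0.930 to 1.76 FPKM across sham and 4.02 to 10.6 FPKM across AAN mice (2.35 ± 0.28, adjusted p = 1.99e-05). *Nefh*, the heavy neurofilament chain, and *Bfsp1*, known from the lens, had AAN means of 0.374 and 0.441 FPKM and did not overlap the sham mice.

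Upstream windows of 250 bases were held for 20 of the 32 genes, 23 windows in all, and were searched for the same 5 motifs. The AP-1 motif was in windows of *Krt13* alone among these genes and in 6.75% of 32851 windows of all genes, and the STAT motif in that of *Krt42* alone and in 7.02% of all. The TATA box was found for *Krt10*, *Krt12*, *Krt28*, *Prph* and *Vim* and in 12.4% of all windows. The CCAAT box was in 9 of the 23 windows and in 33.8% of all windows. The GC box was found for *Krt7*, *Krt75*, *Lmna*, *Lmnb2*, *Nes* and *Prph* and in 32.7% of all.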

How the data were processed

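The authors made paired-end libraries of cortex RNA from each mouse, filtered the reads, mapped them to GRCm38 with HISAT2 and deposited FPKM of known gene models from StringTie. The authors used edgeR, a test for counts. The deposited FPKM are not counts, so limma took its place, on log2(FPKM + 0.1). A fold change on this scale understates the change of low genes. The annotation release, the assignment of shared fragments and the use of strand are not given in the sources used here. FPKM are per length, so levels of different genes can be compared.

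Symbols came from GENCODE release M21, also on GRCm38, and 142 genes had none. Fits used lmFit and eBayes with trend and robust (limma 3.58.1, R 4.3.3) over 17129 genes averaging 0.1 FPKM or more in the 10 mice, with Benjamini-Hochberg adjustment over all of them. They were checked on made-up data with as many genes raised as lowered, which cannot test the effect of a broad rise. Calls needed an adjusted p within 0.05 and a fold of 2 or more, or of 0.5 or less. Differences between 2 genes within a mouse were tested with exact two-sided permutation tests over 210 arrangements, adjusted over the 8 pairs (Python 3.11.15, scipy 1.17.1). Depth was recovered in genes with 1 transcript, where values under 0.3 FPKM were whole fragments, within a tolerance of 0.05, in 94.6% to 96.9% of cases. A value of 0 allows up to 3 fragments, for counting error only. Each mouse was a replicate, numbered in the order of the records, and the tests took mice as the units.

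The members, the partner and marker lists (14 lists of cell type markers, from the proximal tubule to dividing cells) and the pairs were chosen with earlier results of these data known. Members averaging 1 FPKM or more in either group are named with their values, others past both limits with group means or ranges. In each role of the partner list, up to 3 genes with the largest change past the limits and the gene with the highest mean are named. The other members were named after their values were seen. The alternatives were a pseudocount of 1 or 0.01, a filter at a mean of 1 FPKM or none at all, 3 scalings between mice, limma without trend and robust, each mouse left out, mice with a tag beginning with B alone (3 sham, 5 AAN), no fold limit, and the fold limit counted from the median of all genes.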

Additional observations from a re-analysis of the deposited data

Results flagged for a closer look

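In the AAN mice, *Krt80* was 6.57 FPKM in the mouse named 2, against 1.38 to 2.76 FPKM in the other 5, a gap wider than Dixon's 95% critical value for 6 samples. In the sham mice, *Lmnb1* minus *Lmnb2* was -1.66 on the log2 scale in the mouse named 2, against -0.63 to -0.56 in the other 3, again a gap past that value. Chance flags about 1 in 20 groups, and 41 groups of values were examined, so about 2 such gaps are reached by chance alone. Their causes were not tested.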

How the results depend on the processing

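Of 126 alternative values of the gene counts, 106 stayed within 1.5 times the reported count. With a pseudocount of 1, 2909 genes (17% of those tested), 7 of the filament genes (35%) and 8 partner genes (22.9%) were called higher. With a filter at a mean of 1 FPKM it was 4025 genes (32.8%) and 8 filament genes (66.7%), as fewer genes were tested. *Krt12*, *Krt17*, *Krt83*, *Prph* and *Synm* lost their calls under both, and *Krt23* with the pseudocount. With median of ratios scaling, 3201 genes were higher and 1811 lower, 1 filament gene was lower and 6 partner genes were higher. With quantile normalization, 2537 were higher and 2025 lower, with 1 filament gene lower, and 5 partner genes higher and 1 lower. With the same FPKM total 8866 genes (51.5%), 17 filament genes (85%) and 28 partner genes (80%) were higher, and 330 genes were lower. With no fold limit, 9482 genes were higher and 1027 lower. With the fold limit set from the median of all genes, 2861 were higher (16.7%) and 1027 lower, and 6 partner genes higher (17.1%). *Krt8*, *Krt18*, *Krt19*, *Vim* and *Lmnb1* were called higher in all 22 settings. For the 13 filament genes averaging 1 FPKM or more in a group, 230 of 246 alternative values kept their side and direction. *Krt7* turned to -0.058 with median of ratios scaling, *Lmnb2* to -0.19 with quantile normalization and *Krt80* to 0.18 with the same FPKM total, and *Krt80* ranged from -0.51 to 0.28 when each mouse was left out, turning without the sham mouse named 1. Outside these 13, *Krt222* turned to -0.55, *Nefl* to -0.28 and *Nefm* to -0.076 with quantile normalization. Of 128 alternative values of the pair differences, 126 kept their call. *Krt19* minus *Krt18* was 0.43 with a pseudocount of 1 (adjusted p = 0.0571 by the exact permutation test), and *Nes* minus *Vim* was -1.64 in the mice with B tags (adjusted p = 0.0536 by the exact permutation test, on fewer mice). No paired analysis was possible because the labels number no mouse in common between sham and AAN. The depth allows 3 fragments at a value of 0, so absence cannot be shown for *Krt12*, *Krt17* and the other keratins listed at 0 in sham mice. Other causes were not tested.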
